A study of Mus musculus with 8 samples.

Results

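The genes of the mitochondrial ribosome that carry the symbols *Mrpl* or *Mrps* followed by a digit were followed in rib chondrocytes of wild-type and *Mir140*-null mice. Members were every protein-coding gene of GENCODE M21 with such a symbol and an abundance of at least 0.5 TPM, the share of transcripts after scaling for transcript length and library total, in at least 4 of the 8 libraries. Of 52325 gene identifiers, 78 matched the symbols and all 78 passed the filter, out of 17177 genes tested. By symbol, 49 encode proteins of the large subunit (*Mrpl*) and 29 proteins of the small subunit (*Mrps*), and they lie on 17 chromosomes.

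The mitochondrial ribosome (mitoribosome) sits in the mitochondrial matrix and translates the mRNAs encoded by the mitochondrial genome, all of which specify subunits of the respiratory chain and the ATP synthase. Its rRNAs are made in the organelle, whereas every one of its proteins is encoded in the nucleus, translated in the cytosol and imported. Some of these proteins descend from the bacterial ribosome and others are found in mitochondria alone.

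Both groups were 7 d old mice of the C57BL/6J background. The *Mir140*-null line carries a CRISPR/Cas9 deletion of the *Mir140* locus, which encodes the cartilage microRNAs miR-140-5p and miR-140-3p. Founders were of mixed C57BL/6 and CBA/ca origin and were backcrossed, and heterozygotes were then crossed to give the wild-type and the null line, so the deletion is constitutive and the controls share the ancestry. Chondrocytes were released from the rib cartilage with collagenase, and RNA-seq gave 4 libraries for each genotype. Whether each library was 1 animal is not given in the sources used here, so the p-values measure the spread between these libraries.

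Across the series, genotype was compared with limma on log2(TPM + 1), and a gene was called at a Benjamini-Hochberg adjusted p under 0.05. *Mir140* itself was listed at 0 in every library but the one labelled *Mir140*-null replicate 2, which had 8.86 TPM, so its values do not separate the genotypes and the groups rest on the labels. *Col2a1*, the main collagen of cartilage, averaged 57785 TPM in wild-type libraries. The 10 chondrocyte markers summed to 59300 to 74206 TPM in wild-type and 43644 to 59916 TPM in null libraries. In null replicates 1 to 4 the 8 markers of fibroblasts and perichondrium summed to 717, 882, 5470 and 4032 TPM, against 3209 to 6065 TPM in wild-type. Summed markers of other cells overlapped between the genotypes in every list: erythroid cells (646 to 1854 TPM in wild-type and 257 to 1725 TPM in null), macrophages (21.8 to 39.7 and 17.0 to 31.2), skeletal muscle (55.5 to 78.4 and 30.8 to 56.9), endothelium (6.22 to 22.8 and 5.26 to 30.7), osteoblasts (114 to 175 and 92.8 to 195) and adipocytes (28 to 66.7 and 27.6 to 76.2). No list member in the files was at 0 in every library, but not all reached a mean of 0.5 TPM over the 8 libraries. That mean was reached by 5 of 7 erythroid, 3 of 8 macrophage and 3 of 8 skeletal muscle markers. It was reached by 5 of 6 endothelial, 4 of 6 osteoblast and 1 of 6 adipocyte markers. Of the markers tested, log2FC (null minus wild-type) was negative for 8 of 10 chondrocyte, 5 of 8 fibroblast and all 5 erythroid markers. It was negative for all 3 macrophage, all 3 muscle, 4 of 5 endothelial, 3 of 4 osteoblast and the 1 adipocyte marker. Of all 17177 genes it was negative for 8717. Called lower were 3 chondrocyte markers and 1 macrophage marker, against 6.40% of all genes. Called higher were 1 chondrocyte marker and 2 fibroblast markers, against 10.5%. The mitochondrial genome took 4.06% to 6.99% of all TPM in wild-type and 8.41% to 10.1% in null libraries. The part of these shifts in the results below was not tested, and in bulk RNA a change in the cells present and a change in RNA per cell cannot be told apart.

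A TPM value is scaled by transcript length, so levels can be compared between members. In wild-type chondrocytes the member means ran from 1.21 TPM for *Mrpl23* to 118 TPM for *Mrpl52*, a 97.1-fold range, with a median of 9.58 TPM. Large-subunit genes had a median of 9.45 TPM and small-subunit genes one of 9.71 TPM. The 10 most abundant members held 45.8% of the summed TPM of the family.

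*Mrpl52* and *Mrpl2* led the large subunit. *Mrpl52*, a protein without a bacterial counterpart, had 116, 113, 141 and 101 TPM in wild-type replicates 1 to 4 and 146, 134, 137 and 107 TPM in null replicates 1 to 4. *Mrpl2*, which lies near the peptidyl transferase centre, was more variable, with 75.8, 53.5, 85.6 and 115 TPM in wild-type and 133, 56.0, 103 and 126 TPM in null libraries. The genotypes overlapped for both genes, and neither was called (log2FC 0.16, limma adjusted p = 0.451, and 0.32, limma adjusted p = 0.516).

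*Mrps21* and *Mrps18c* led the small subunit. *Mrps21* averaged 69.2 ± 11.7 TPM (SD, n = 4) in wild-type and 53.3 ± 15.9 TPM in null libraries, a log2FC of -0.40 that was not called (limma adjusted p = 0.246). *Mrps18c* averaged 42.6 ± 11.2 TPM (SD, n = 4) and 51.9 ± 2.77 TPM (limma adjusted p = 0.253). For both genes the genotypes overlapped, and the difference between the means was no larger than about the larger SD, though above the smaller one.

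At the other end, *Mrpl23* and *Mrpl11* were the lowest of the large subunit and *Mrps27* and *Mrps31* of the small. *Mrpl11*, part of the stalk base, had 1.67 to 2.48 TPM in wild-type and 2.06 to 3.00 TPM in null libraries. *Mrps31* had 2.72 to 3.68 TPM in wild-type and 3.56 to 5.47 TPM in null libraries, overlapping only in the value of null replicate 4 (limma adjusted p = 0.134).

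The level of *Mrpl23* has to be read beside a processed pseudogene. *Mrpl23* was listed at 1.08, 0.467, 2.10 and 1.20 TPM in wild-type replicates 1 to 4, whereas *Mrpl23-ps1* was listed at 19.2, 19.3, 19.1 and 18.3 TPM in the same libraries. Of the distinct 31-base words of the pseudogene transcript, 94.6% also occur in transcripts of *Mrpl23*, so reads of one can be assigned to the other. *Gm5776*, which shares 89.4% of its words with *Mrps33*, had 16.2 to 32.2 TPM. For 60 of the 78 members, under 10% of the words occurred in transcripts of another gene, and these 60 had the same median log2FC as all members (0.31), with 8 called higher and 1 called lower.

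**Figure D1:**
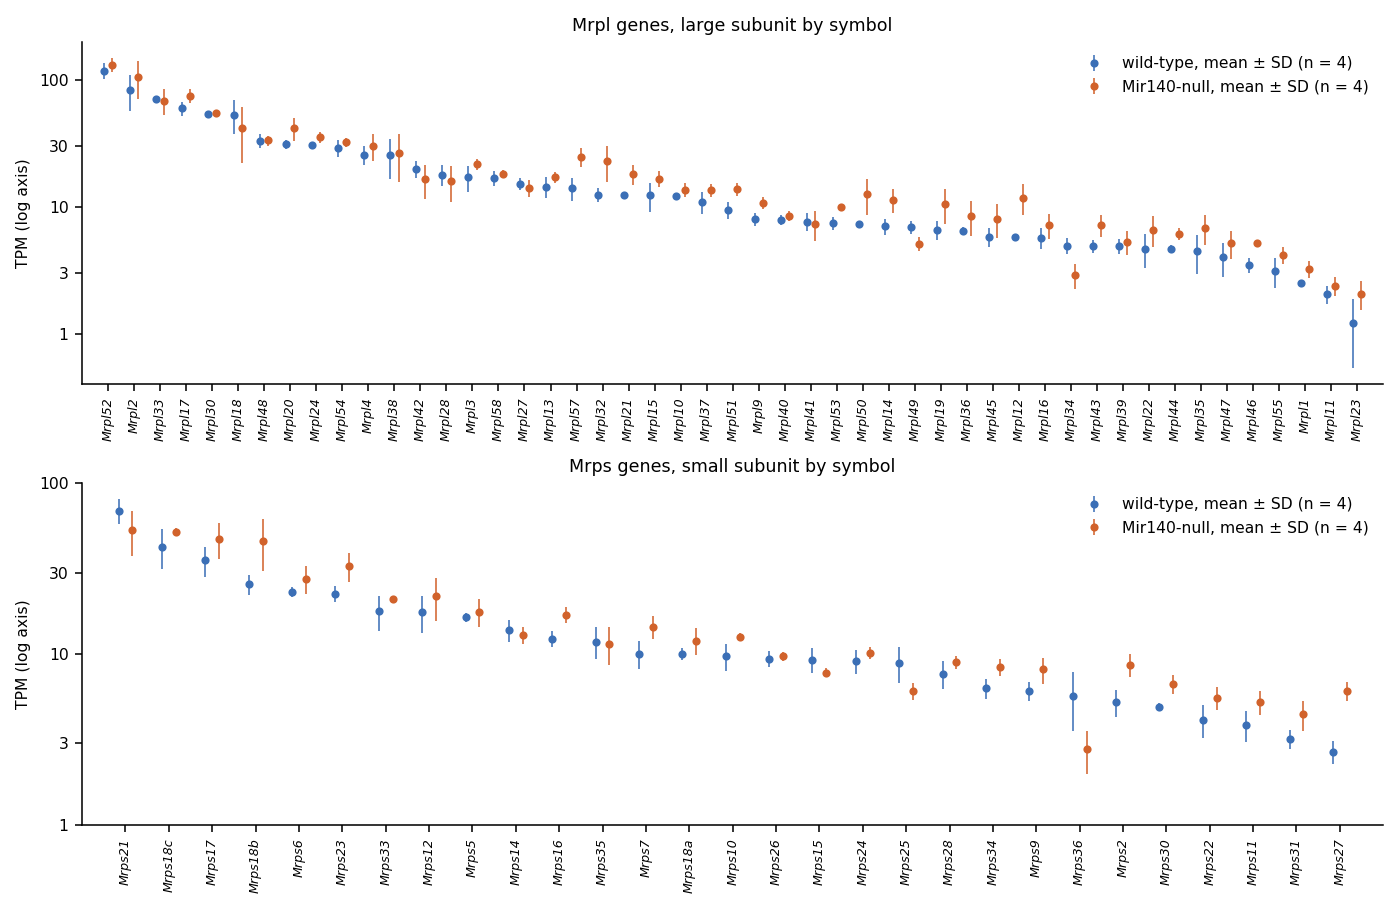
Mean TPM (log axis) of the 49 *Mrpl* genes (top) and 29 *Mrps* genes (bottom), ordered by the wild-type mean, with bars of ± SD over 4 libraries of each genotype. Levels run from 1.21 TPM for *Mrpl23* to 118 TPM for *Mrpl52* in wild-type, and most null means lie above their wild-type mean.

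In *Mir140*-null chondrocytes 64 of the 78 members had a positive log2FC, against 53.4% of the 13118 protein-coding genes tested. The median log2FC of the members was 0.31, beside 0.04 for protein-coding genes and -0.01 for all genes tested. In a fit of genes with a mean of 5 TPM or more, the median was 0.30 for 66 members and 0.11 for all 9668 genes. In that fit 12 of the 66 members and 17.0% of all genes were called higher. In the main fit 11 of the 78 members were up-regulated and 1 was down-regulated. The 11 make up 14.1% of the members, and the share of genes called higher was 10.5% of all genes and 12.7% of protein-coding genes. The single down-regulated member is 1.28% of the family, beside 6.40% of all genes and 5.30% of protein-coding genes. The share of up-regulated members was therefore near that of protein-coding genes, while the shift was small and spread over most of the family.

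All 4 null libraries lay above all 4 wild-type libraries for 20 members (25.6%), beside 15.7% of all and 19.3% of protein-coding genes tested. All 4 lay below for *Mrpl34* and *Mrpl49*, beside 10.2% of all and 9.14% of protein-coding genes tested. Relative to the wild-type mean of each gene, the median member stood at 0.38, 0.23, 0.35 and 0.17 on the log2 scale in null replicates 1 to 4, and between -0.06 and 0.04 in the wild-type libraries. Null replicate 3 was the highest of the null libraries for 31 members and null replicate 1 for 29, while null replicate 4 was highest for 5. Null replicate 1 was the highest in 7 of the 11 up-regulated members, and it had the lowest sample quality weight of limma (0.431, beside 0.670 to 1.66 for the other libraries). In null replicates 1 to 4, 15800, 16056, 17435 and 16991 genes reached 0.5 TPM, against 17128 to 17950 in wild-type libraries. The part of these differences in the results was not tested.

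**Figure D2:**
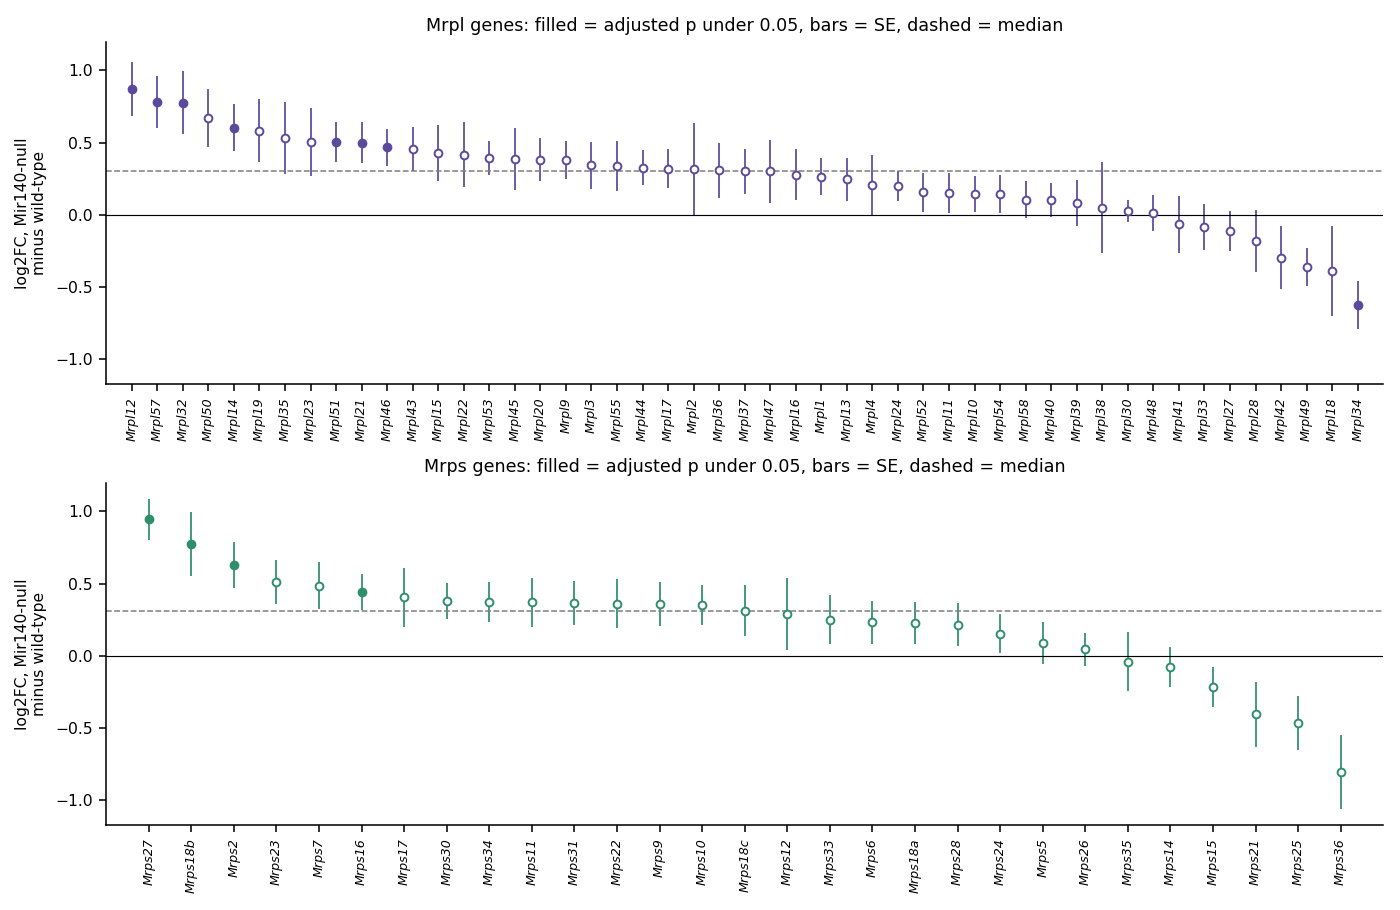
log2FC (*Mir140*-null minus wild-type, on log2(TPM + 1)) of each *Mrpl* gene (top) and *Mrps* gene (bottom), with bars of ± SE, filled points for adjusted p under 0.05 from limma and a dashed line at the median. Of the 78 points, 64 lie above 0, and 12 are filled.

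Leaving out a library changed which members were called. Without wild-type replicates 1 to 4 in turn, 3, 5, 1 and 1 members were called higher, and without null replicates 1 to 4 in turn 2, 2, 4 and 7. The share of all genes called higher also dropped in these fits of 7 libraries, to between 4.54% and 9.04%. As a share of the 78 members, the counts lay below the share of all genes in every such fit except that without null replicate 4. The median log2FC of the members was between 0.26 and 0.35 in these fits. Without the library labelled null replicate 2, in which *Mir140* was listed, *Mrps27* (log2FC 0.89, limma adjusted p = 0.0297) and *Mrpl21* (0.59, limma adjusted p = 0.0497) were called, and the median was 0.29. After median-ratio scaling between the libraries, the up-regulated share of all called genes moved from 62.0% to 50.9%. There 4 of the 78 members were called higher and 1 lower, beside 7.96% and 7.68% of all genes, with a median log2FC of 0.29.

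Among small-subunit genes, 4 of 29 were up-regulated and no member was down-regulated, with a median log2FC of 0.31. The 4 are 13.8%, beside 10.5% of all and 12.7% of protein-coding genes called higher. *Mrps27* (ENSMUSG00000041632, chr13:99344786-99415562, plus strand), a pentatricopeptide-repeat protein found in mitochondria but not in bacteria, changed the most of all members. It had 3.11, 2.90, 2.50 and 2.20 TPM in wild-type replicates 1 to 4 and 5.64, 6.85, 5.19 and 6.63 TPM in null replicates 1 to 4. Every null library stood above every wild-type library (log2FC 0.94 ± 0.14 SE, limma adjusted p = 0.00839), and this gene was called in all 8 fits that left out 1 library.

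*Mrps18b* is one of the mitochondrial homologues of a bacterial small-subunit protein that mammals carry in several copies. Since its place in the ribosome differs from that of the bacterial protein, it is grouped below with the proteins found in mitochondria alone. It had 20.9, 28.7, 26.1 and 27.4 TPM in wild-type and 68.6, 43.8, 38.3 and 33.8 TPM in null libraries. The groups did not overlap, but null replicate 1 was far above the other null libraries (log2FC 0.77 ± 0.22 SE, limma adjusted p = 0.0458), and the call held in 1 of the 8 fits that left out a library. Of its 31-base words, 16.7% occur in the pseudogene *Gm13552*, which had 3.84 to 6.75 TPM in wild-type and was listed at 0 in null replicate 1.

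*Mrps2*, a homologue of a bacterial small-subunit protein, had 4.10, 6.39, 5.07 and 5.44 TPM in wild-type and 10.4, 7.45, 9.01 and 7.76 TPM in null libraries (log2FC 0.63 ± 0.16 SE, limma adjusted p = 0.0338). *Mrps16*, mutated in a human disorder of the respiratory chain, had 13.7, 13.2, 11.0 and 11.3 TPM in wild-type and 17.9, 14.8, 19.1 and 16.2 TPM in null libraries (log2FC 0.44 ± 0.12 SE, limma adjusted p = 0.0469). Both were without overlap between the genotypes. The call for *Mrps2* held in 2 and that for *Mrps16* in none of the 8 fits without 1 library.

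Several small-subunit genes lay just outside the threshold or did not move with the family. *Mrps23* was higher in every null library (22.6 ± 2.52 TPM in wild-type and 32.9 ± 6.29 TPM in null, SD, n = 4), with limma adjusted p = 0.0507. *Mrps12*, a homologue of the bacterial decoding-centre protein, had 11.5 to 21.1 TPM in wild-type and 15.8 to 28.5 TPM in null libraries (limma adjusted p = 0.444). None of the 5 genes listed for the head and decoding centre (*Mrps7*, *Mrps9*, *Mrps10*, *Mrps12* and *Mrps14*) was called, with a median log2FC of 0.35.

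*Mrps36* had the most negative value of the family. Its protein is known as a component of the 2-oxoglutarate dehydrogenase complex and is absent from structures of the mammalian mitoribosome. It had 8.57, 3.58, 6.11 and 4.60 TPM in wild-type and 3.23, 2.21, 3.62 and 1.98 TPM in null libraries, with an overlap of wild-type replicate 2 and null replicate 3. Its log2FC of -0.81 ± 0.26 SE was not called (limma adjusted p = 0.0637), and 279 of its 1327 distinct 31-base words occur in other genes, foremost the pseudogene *Mrps36-ps1*.

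Large-subunit genes had a median log2FC of 0.30, with 7 of 49 up-regulated and 1 down-regulated. The 7 are 14.3%, beside 10.5% of all and 12.7% of protein-coding genes called higher. *Mrpl12* (ENSMUSG00000039640, chr11) forms the stalk that recruits translation factors. It had 5.40, 6.13, 5.87 and 5.80 TPM in wild-type and 15.7, 12.7, 10.6 and 8.11 TPM in null libraries. The wild-type values were tight, the null values spread widely, and the groups did not overlap (log2FC 0.87 ± 0.19 SE, limma adjusted p = 0.0205). It was called in 5 of the 8 fits that left out a library. The other genes listed for the stalk, *Mrpl10*, *Mrpl11* and *Mrpl53*, had log2FC of 0.14, 0.15 and 0.39 and were not called.

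*Mrpl57* and *Mrpl32* followed in size. *Mrpl57*, a protein without a bacterial counterpart, had 10.7, 17.6, 13.6 and 14.2 TPM in wild-type and 28.6, 28.2, 21.9 and 20.2 TPM in null libraries (log2FC 0.78 ± 0.18 SE, limma adjusted p = 0.0248). *Mrpl32*, whose precursor is cleaved by the m-AAA protease before it joins the ribosome, had 14.5, 10.5, 12.3 and 12.6 TPM in wild-type and 31.1, 26, 16.3 and 17.5 TPM in null libraries (log2FC 0.78 ± 0.22 SE, limma adjusted p = 0.0435). For *Mrpl32* null replicates 1 and 2 stood above null replicates 3 and 4, and the call held in 2 of the 8 fits without 1 library, against 3 for *Mrpl57*.

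The other up-regulated large-subunit genes changed less. *Mrpl14*, the docking site of the assembly factor MALSU1, had 6.10 to 8.38 TPM in wild-type and 15.0, 10.1, 9.96 and 10.2 TPM in null libraries (log2FC 0.60, limma adjusted p = 0.0413). *Mrpl51* had 8.17 to 11.2 TPM in wild-type and 12.1 to 15.1 TPM in null libraries (log2FC 0.50, limma adjusted p = 0.0445). Of its 31-base words, 11.7% occur in other genes. The pseudogene *Gm14017*, 63.8% of whose words occur in *Mrpl51*, had 6.36 to 8.83 TPM in wild-type and 3.66 to 10.4 TPM in null libraries. *Mrpl21* had 11.3 to 12.9 TPM in wild-type and 14.7 to 22.7 TPM in null libraries (log2FC 0.50, limma adjusted p = 0.0453). *Mrpl46*, a protein of the central protuberance, had 2.88 to 3.93 TPM in wild-type and 4.89 to 5.55 TPM in null libraries (log2FC 0.47, limma adjusted p = 0.0397). None of these up-regulated members overlapped between the genotypes, and each was called in at most 1 of the 8 fits that left out a library.

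*Mrpl34* (ENSMUSG00000034880, chr8:71464959-71465747, plus strand), a small homologue of a bacterial large-subunit protein, was the down-regulated member. It had 5.94, 4.55, 4.41 and 4.89 TPM in wild-type and 1.99, 3.36, 3.37 and 2.83 TPM in null libraries. No null library reached a wild-type one (log2FC -0.62 ± 0.17 SE, limma adjusted p = 0.0382). The call held in 1 of the 8 fits without 1 library.

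**Figure D3:**
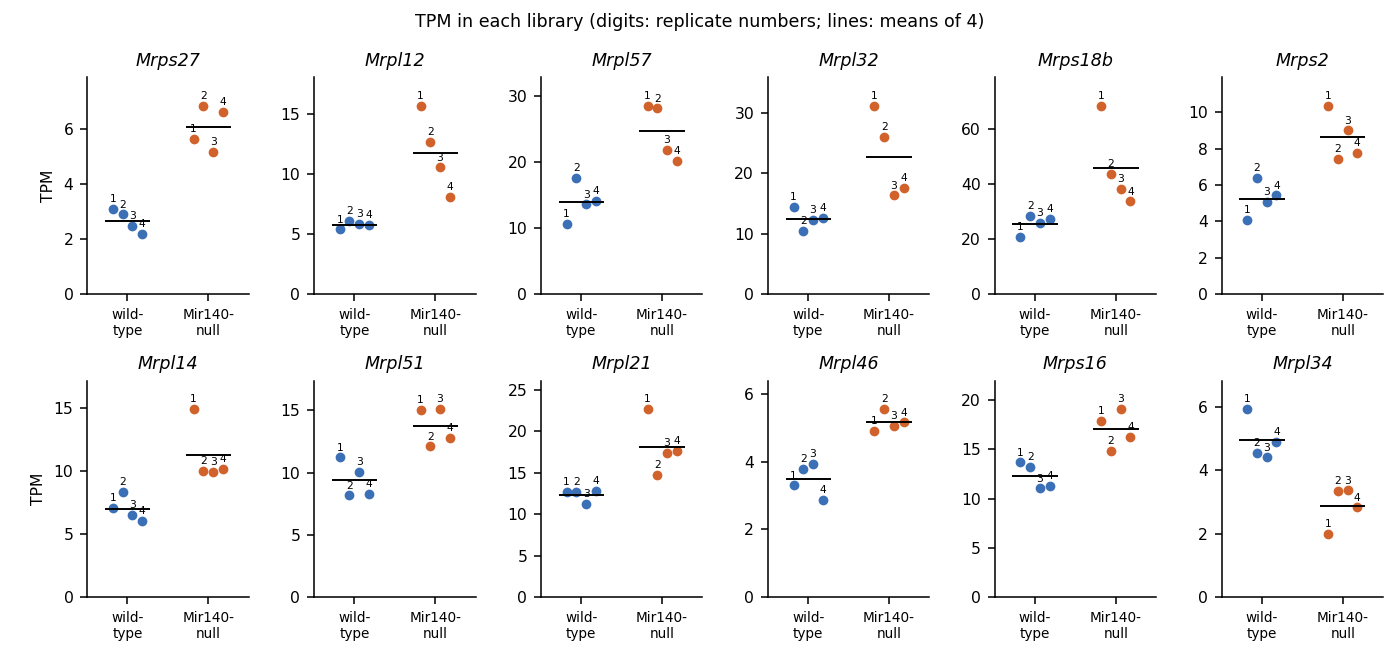
TPM in each library of the 11 up-regulated members and *Mrpl34*, in wild-type (blue) and *Mir140*-null (orange), with replicate numbers beside the points and lines at the means of 4. In each panel the genotypes do not overlap, and in 7 of the 11 up-regulated panels null replicate 1 is the highest.

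Members with a known place or activity that were not called include *Mrpl45*, a protein at the mouth of the exit tunnel that binds the inner membrane. It had 4.41 to 6.49 TPM in wild-type and 5.63, 6.43, 9.74 and 10.5 TPM in null libraries (limma adjusted p = 0.241). *Mrpl44*, an RNase III-like protein, had 4.33 to 5.13 TPM in wild-type and 5.34 to 6.82 TPM in null libraries, without overlap but with limma adjusted p = 0.102. *Mrpl58*, a peptidyl-tRNA hydrolase built into the large subunit, had 13.7 to 18.6 TPM in wild-type and 16.5 to 20.0 TPM in null libraries (limma adjusted p = 0.599).

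Between the called members and the rest stood a band just outside the threshold, given as values. *Mrpl50* had 6.92 to 7.73 TPM in wild-type and 18.1, 13.2, 10.1 and 9.10 TPM in null libraries (log2FC 0.67, limma adjusted p = 0.0541). *Mrpl53* had 6.14 to 8.03 TPM in wild-type and 9.31 to 10.6 TPM in null libraries (limma adjusted p = 0.0574), and 84.4% of its 31-base words occur in *Gm42688*, which averaged 0.520 TPM in wild-type. *Mrps7*, a protein of the head of the small subunit, had 8.16 to 12.4 TPM in wild-type and 11.8 to 17.4 TPM in null libraries (limma adjusted p = 0.0776). For *Mrpl50* and *Mrpl53* every null library stood above every wild-type library, and for *Mrps7* null replicate 4 lay within the wild-type range. At an unadjusted p under 0.05 from limma, 26 of the 78 members were higher and 4 lower. At the same limit 3263 of all 17177 genes tested were higher and 2558 lower. Of the 13118 protein-coding genes tested, 2976 were higher and 1704 lower.

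The 14 members with a negative log2FC were *Mrpl18*, *Mrpl27*, *Mrpl28*, *Mrpl33*, *Mrpl34*, *Mrpl41*, *Mrpl42* and *Mrpl49* of the large and *Mrps14*, *Mrps15*, *Mrps21*, *Mrps25*, *Mrps35* and *Mrps36* of the small subunit. *Mrpl49* had 5.88 to 7.50 TPM in wild-type and 4.34 to 5.81 TPM in null libraries, without overlap (log2FC -0.36, limma adjusted p = 0.0987). *Mrps25* had 5.84 to 10.2 TPM in wild-type and 5.11 to 6.58 TPM in null libraries (log2FC -0.46, limma adjusted p = 0.121), where wild-type replicate 2 alone lay within the null range. *Mrpl30*, a homologue of a bacterial large-subunit protein, was the steadiest member, with 51.1 to 54.7 TPM in wild-type and 52.8 to 56.2 TPM in null libraries (log2FC 0.03).

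The 6 genes listed for the exit tunnel (*Mrpl17*, *Mrpl22*, *Mrpl23*, *Mrpl24*, *Mrpl45* and *Mrpl47*) all had positive log2FC, from 0.20 to 0.50, and none was called. The 9 listed for the central protuberance had a median log2FC of 0.10, with *Mrpl46* called higher. *Mrpl18*, one of these 9, had 31.2, 32.9, 70.5 and 31.2 TPM in null libraries and 38.0 to 69.8 TPM in wild-type.

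Members were also grouped by descent. As an exception, *Mrps18a* and *Mrps18b*, homologues of a bacterial protein, were counted with the genes found in mitochondria alone. Of the 30 large-subunit genes with a bacterial counterpart, 4 were up-regulated and 1 was down-regulated (median log2FC 0.31), and of the 21 found in mitochondria alone 3 were up-regulated (0.22). For the small subunit the counts were 2 of 16 (0.30) and 2 of 10 (0.36). In this order the up-regulated shares were 13.3%, 14.3%, 12.5% and 20.0%, beside 10.5% of all and 12.7% of protein-coding genes tested. These classes follow ribosome structures, in which the products of *Mrps18a* and *Mrps30* belong to the large subunit. *Mrps30* was higher in every null library (4.89 ± 0.244 TPM and 6.69 ± 0.870 TPM, SD, n = 4, limma adjusted p = 0.0699), while *Mrps18a* overlapped (limma adjusted p = 0.312).

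Less abundant members had somewhat larger median values. Among the 26 most abundant members the median log2FC was 0.22 with 3 up-regulated, among the middle 26 it was 0.27 with 5 up-regulated, and among the lowest 26 it was 0.36 with 3 up-regulated and 1 down-regulated. The 10 most abundant members in wild-type had a median of 0.09, and none of them was called. These medians were not tested against each other, and 10.5% of all genes tested were called higher.

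The large subunit summed to 897, 853, 952 and 990 TPM in wild-type replicates 1 to 4 and 1141, 988, 1142 and 997 TPM in null replicates 1 to 4, which overlap at the edge. The small subunit summed to 431, 373, 448 and 446 TPM in wild-type and 531, 486, 514 and 465 TPM in null libraries, without overlap. The null mean was 1.16 times the wild-type mean for the large and 1.18 times for the small subunit.

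The ratio of large to small subunit TPM was 2.08, 2.29, 2.12 and 2.22 in wild-type and 2.15, 2.04, 2.22 and 2.14 in null libraries, with means of 2.18 ± 0.0932 and 2.14 ± 0.0778 (SD, n = 4). With *Mrps18a* and *Mrps30* counted as large and *Mrps36* left out, the means were 2.33 ± 0.101 and 2.27 ± 0.0948. The difference between the genotypes was smaller than the spread within either of them under both definitions.

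**Figure D4:**
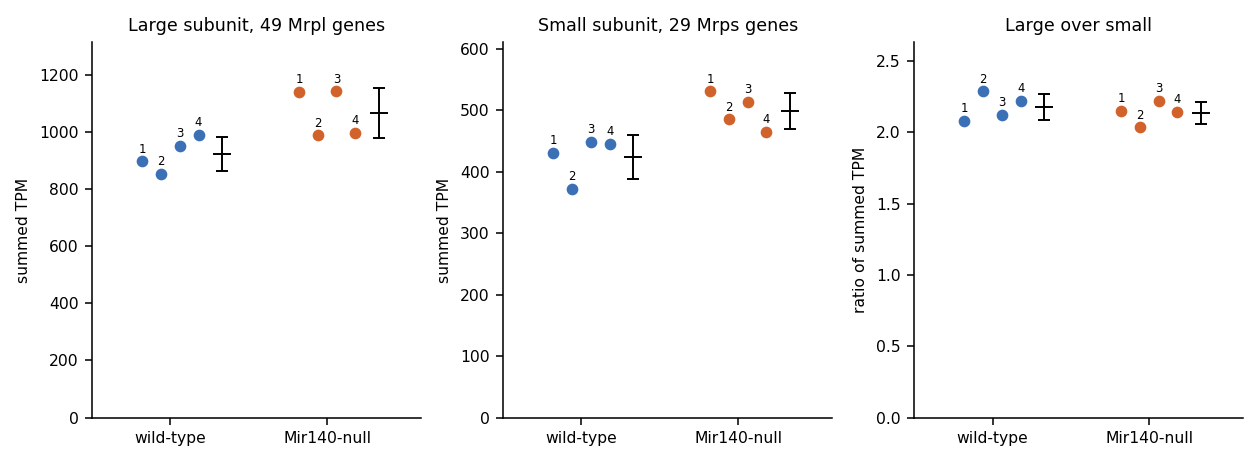
Summed TPM of the 49 *Mrpl* genes, of the 29 *Mrps* genes, and their ratio in each library, with replicate numbers beside the points and mean ± SD (n = 4) to the right of each group. Small-subunit sums of the null libraries (465 to 531 TPM) lie above those of wild-type (373 to 448 TPM), while the ratios of both genotypes fall between 2.04 and 2.29.

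Mitoribosomal proteins known under other names were not called. *Dap3* had 24.8 to 34.5 TPM in wild-type and 27.9 to 36.2 TPM in null libraries, *Ptcd3* had 23.2 to 29.1 and 23.3 to 31.7 TPM, and *Chchd1* 17.7 to 22.8 and 18.4 to 26.3 TPM. *Aurkaip1* had 10.2 to 16.3 and 13.0 to 18.4 TPM, and *Gadd45gip1*, which belongs to the large subunit, 1.34 to 1.93 and 1.67 to 2.53 TPM. The genotypes overlapped for all 5, whose median log2FC was 0.17.

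Factors that build the mitoribosome moved as follows. Of 27 listed assembly and rRNA-modifying factors, 3 were up-regulated (11.1%, beside 10.5% of all genes tested) and none was down-regulated. The 27 had a median log2FC of 0.16. *C1qbp*, a matrix protein, had 49.8 to 58.4 TPM in wild-type and 115, 82.3, 70.1 and 73.1 TPM in null libraries (log2FC 0.64, limma adjusted p = 0.0326). *Rcc1l* had 4.56 to 5.80 and 6.61 to 10.2 TPM (limma adjusted p = 0.0457), and *Ngrn*, a partner of the large rRNA, 6.03 to 8.20 and 9.33 to 10.5 TPM (limma adjusted p = 0.0397). Of 15 translation factors none was called, with 3 higher and 1 lower at an unadjusted p under 0.05 from limma and a median log2FC of 0.11.

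Of 19 mitochondrial tRNA synthetases tested, 2 were up-regulated and 1 was down-regulated, with a median log2FC of 0.04. These were 10.5% and 5.26%, beside 10.5% and 6.40% of all genes tested. *Yars2*, the tyrosyl-tRNA synthetase, had 4.43, 3.15, 2.76 and 3.15 TPM in wild-type and 17.0, 7.87, 9.69 and 8.19 TPM in null libraries (log2FC 1.37, limma adjusted p = 0.0126). *Tars2* was higher in every null library (8.03 to 13.2 and 15.1 to 18.7 TPM, limma adjusted p = 0.0383). *Cars2* was lower in every null library (7.29 to 10.4 and 3.32 to 4.64 TPM, log2FC -0.84, limma adjusted p = 0.0138). This list held the enzymes that charge mitochondrial tRNAs, and its members moved both ways.

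Of 14 tested genes for mitochondrial transcription, replication and the control of mitochondrial biogenesis, 5 were up-regulated and 1 was down-regulated, with a median log2FC of 0.33. These were 35.7% and 7.14%, beside 10.5% and 6.40% of all genes tested. *Tfb2m*, the initiation factor of the mitochondrial RNA polymerase, had 14.1, 13.8, 14.0 and 8.07 TPM in wild-type and 26.8, 26.6, 21.8 and 26.5 TPM in null libraries (log2FC 0.998, limma adjusted p = 0.0140). *Pprc1*, a coactivator related to PGC-1, had 29.6 to 38.7 and 43.8 to 100.5 TPM (limma adjusted p = 0.0486). *Nrf1*, a transcription factor of nuclear genes for mitochondria, had 5.55 to 8.76 and 9.98 to 15.7 TPM (limma adjusted p = 0.0287). *Polg2*, the accessory subunit of the mitochondrial DNA polymerase, was the one down-regulated, at 8.67 to 11.9 and 4.58 to 6.78 TPM (limma adjusted p = 0.0163).

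The mRNAs that the mitoribosome translates were higher in null libraries. Of the 13 mitochondrially encoded mRNAs, 10 were up-regulated (76.9%, beside 10.5% of all genes tested). The median log2FC of the 13 was 0.84, with log2FC from 0.68 to 1.39. *mt-Co1*, a core subunit of cytochrome c oxidase, had 1236, 1744, 1931 and 1527 TPM in wild-type and 2745, 2522, 3434 and 2913 TPM in null libraries (limma adjusted p = 0.0139). The 3 not called were *mt-Nd1*, *mt-Nd2* and *mt-Nd3*, with overlapping genotypes.

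Of 83 tested ribosomal proteins of the cytosol and their paralogues, 3 were up-regulated (3.61%, beside 10.5% of all genes tested). Only 1 was down-regulated (1.20%, beside 6.40%), and the median log2FC of the 83 was 0.05. With 2 more genes that were listed but not tested, these summed to 74359 to 82837 TPM in wild-type and 75196 to 90074 TPM in null libraries.

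**Figure D5:**
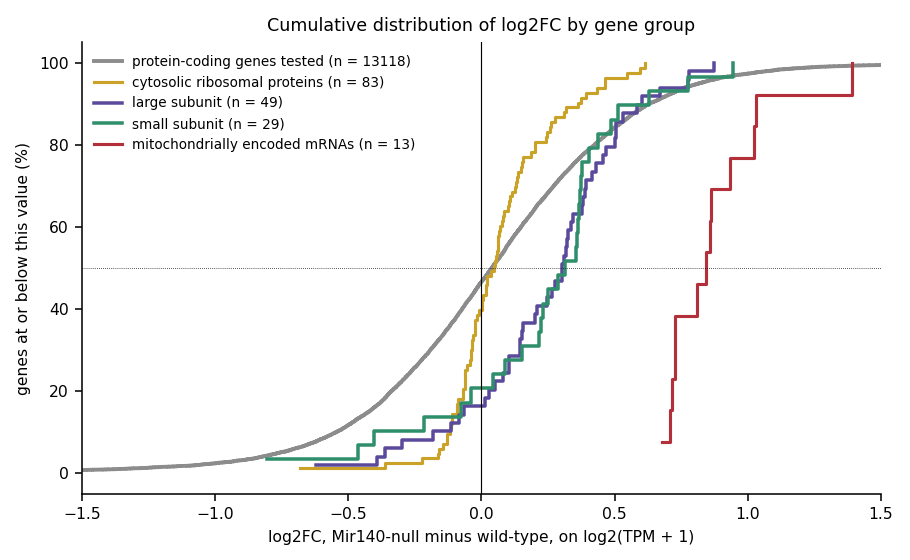
Cumulative distribution of log2FC (*Mir140*-null minus wild-type) for large-subunit genes, small-subunit genes, cytosolic ribosomal proteins, mitochondrially encoded mRNAs and all protein-coding genes tested. Both mitoribosomal curves cross the 50% line near 0.3, the cytosolic ribosomal proteins at 0.05, and the mitochondrially encoded mRNAs at 0.84.

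The deleted locus encodes miR-140-3p, whose mature sequence is printed here because its seed was searched for in the 3' untranslated regions of the members. The RefSeq entry lies at chr8:107551288-107551308 on the plus strand of GRCm38, and capitals mark the seed, bases 2 to 8.
miR-140-3p: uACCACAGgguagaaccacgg
This seed is that of the isoform called miR-140-3p.2, and miR-140-3p.1 starts 1 base later, which shifts its seed by 1 base.

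A 7-base match to the miR-140-3p.1 seed (CCTGTGG) was present in the longest annotated 3' untranslated region of 11 of 78 members (14.1%), beside 20.2% of the 12983 protein-coding genes tested that have one. A match to the miR-140-3p.2 seed (CTGTGGT) was present in 9 members (11.5%), beside 19.0%. Of the 16 members with either match, 3 were up-regulated (*Mrpl12*, *Mrpl32* and *Mrpl51*). Called higher were 10.5% of all genes and 12.7% of protein-coding genes tested. The median log2FC of the 16 was 0.34, near the 0.31 of all 78 members. The longest annotated region need not be the one used in chondrocytes. The seed of the other microRNA of the deleted locus, named at the start, was not searched for, so these counts leave out its sites. In the paper, that other microRNA made the largest contribution to target repression in this null line.

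*Mrpl48* and *Mrps23* are the members whose symbols match the study's list of predicted targets, which was made for human genes, both for miR-140-3p.1. Their sites are shown with those of 2 up-regulated members, written 5' to 3' on the transcript, with capitals for the 7 bases that match a seed.
Mrpl48, miR-140-3p.1, chr7:100547701-100547723, minus strand: ctcagagtCCTGTGGgctggcta
Mrps23, miR-140-3p.2, chr11:88210881-88210903, plus strand: tctcagtaCTGTGGTttgaaagc
Mrpl12, miR-140-3p.2, chr11:120488504-120488526, plus strand: cccagctgCTGTGGTgggagcaa
Mrpl32, miR-140-3p.1, chr13:14608643-14608665, minus strand: gccaccagCCTGTGGctagaggg
The mouse *Mrps23* region held the match to miR-140-3p.2 and none to miR-140-3p.1. *Mrpl48*, a protein of the central protuberance, had 29.4, 34.1, 38.6 and 29.9 TPM in wild-type and 31.6, 29.8, 35.1 and 36.1 TPM in null libraries (log2FC 0.01 ± 0.12 SE, limma adjusted p = 0.954). *Mrps23*, given above, had a log2FC of 0.51 ± 0.15 SE. *Mrps23* was higher in every null library, and *Mrpl48* overlapped between the genotypes.

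Promoter windows of RefSeq (GRCm38.p6, 250 bases before to 50 after the annotated start) were found for 69 members, in 75 windows. The core of the ETS factor site, CCGGAAG on either strand, was in 34.7% of these windows, beside 16.5% of the windows of protein-coding genes tested and 8.86% of all 32851 windows. The YY1 motif AAGATGGCG was in 10.7% of member windows, beside 2.83% and 1.40%. The palindrome of NRF1 was in 4.00%, beside 1.89% and 0.971%, and the TATA box TATAAA in 6.67%, beside 7.32% and 13.6%. CCAAT was in 40.0% of member windows, beside 37.2% and 37.4%. The GC box GGGCGG was in 52.0%, below the 61.5% of protein-coding genes tested and above the 35.7% of all windows. The last 3 letters of the ETS core are the first 3 of the YY1 motif, so a window can hold both in overlap, which was so in 0 of the 2 members with both.

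All 12 called members had a window, and the ETS core was in 6 of the 11 up-regulated members and in *Mrpl34*. Stretches before the RefSeq start are shown for the member with the largest change, the down-regulated member, and 2 up-regulated members. Capitals mark the ETS core or, in *Mrpl32*, the NRF1 palindrome. For *Mrpl51* and *Mrpl32* the stretch lies inside the GENCODE M21 gene span.
Mrps27, chr13:99344706-99344785, plus strand: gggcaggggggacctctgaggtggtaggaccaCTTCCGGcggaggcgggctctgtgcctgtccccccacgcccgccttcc
Mrpl34, chr8:71464826-71464925, plus strand: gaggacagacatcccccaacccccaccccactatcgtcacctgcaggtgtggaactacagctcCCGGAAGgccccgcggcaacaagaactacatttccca
Mrpl51, chr6:125192100-125192129, plus strand: aggggctaaaCCGGAAGtatttgactggac
Mrpl32, chr13:14613105-14613134, minus strand: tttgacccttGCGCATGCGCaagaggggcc
In *Mrps27* the core lies on the opposite strand and begins 48 bases before the RefSeq start. In *Mrpl34* it begins 37 bases before the RefSeq start on the same strand. The same 7 letters thus stood before a member that rose and one that fell, and a match of letters is a description and not a bound site.

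Members also shared an arrangement in the genome. The start of 33 of the 78 (42.3%) lay within 1000 bases of the start of a protein-coding gene on the other strand, in a head-to-head pair, beside 15.7% of the protein-coding genes tested. For 18 of the 33 a gap separated the starts, and for 15 the annotated genes overlapped. Of these 33 members, 8 were up-regulated and none was down-regulated. Among all genes tested 10.5% were called higher and 6.40% lower, and among protein-coding genes 12.7% and 5.30%. The share called among head-to-head genes outside the family was not computed.

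One pair joined the subunits: *Mrpl46* and *Mrps11* on chromosome 7 point away from each other, and 41 bases separate their RefSeq starts, while their GENCODE M21 gene spans overlap by 412 bases. *Mrps11* had 4.35, 2.67, 4.30 and 4.02 TPM in wild-type and 4.71, 4.45, 6.26 and 5.46 TPM in null libraries, without overlap (log2FC 0.37, limma adjusted p = 0.165). Both genes of this pair were higher in every null library, and reads from the overlap may be shared between them.

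Other partners moved with or without the member. *Ppp1r10*, which faces *Mrps18b*, was also up-regulated (log2FC 0.82, limma adjusted p = 0.0129), as was *Tmem63b*, which overlaps the start of *Mrpl14* (0.80, limma adjusted p = 0.0385). *Ptcd2*, which faces *Mrps27*, had a log2FC of -0.15 (limma adjusted p = 0.532). *Psma2*, which faces *Mrpl32*, had 0.21 (limma adjusted p = 0.360). Among partners of members that were not called, *Tcp1*, which overlaps the start of *Mrpl18*, was up-regulated (0.71, limma adjusted p = 0.00993), and *Klc4*, which faces *Mrpl2*, was down-regulated (-0.52, limma adjusted p = 0.0328). *Twnk*, the mitochondrial DNA helicase, overlaps the start of *Mrpl43* and was up-regulated (0.69, limma adjusted p = 0.0233), while *Mrpl43* was higher in every null library without a call (0.46, limma adjusted p = 0.0728). Libraries were made with a stranded kit, and the strand setting of the quantification is not given in the sources used here, so reads from overlapping genes may be shared.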

How the data were processed

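The 4 wild-type and 4 *Mir140*-null libraries were grouped by label. The authors deposited one TPM value per gene and library, obtained with Salmon on mm10. TPM are relative within a library, so a rise of some transcripts lowers the rest. The Salmon version is not given in the sources used here. The number of reads behind a TPM is unknown, and intervals for counting error were not computed. Repeated identifiers were counted once, and GENCODE M21 supplied symbols for 99.8% of them.

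The test was limma 3.58.1 (R 4.3.3, two-sided, mean-variance trend, genotype as the only term) on log2(TPM + 1) over all 17177 genes that reached 0.5 TPM in 4 or more libraries, with Benjamini-Hochberg adjustment. The pseudocount of 1 makes the log2FC of low genes smaller than the ratio of TPM. Members and gene lists were chosen with earlier results of these data known. Genes were named by rule: called members, the 2 highest and 2 lowest of each subunit, members of known place, predicted targets, and up to 3 called genes in each direction of each other list. Other members, head-to-head partners, pseudogenes and subunits of the 2-oxoglutarate dehydrogenase complex were chosen after their values were seen.

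Alternatives were a pseudocount of 0.1, no filter on low values, a minimum mean of 5 TPM, scaling by median ratios, quantile normalization, protein-coding nuclear TPM as the total, the replicate number as a block, 1 factor from residuals, sample quality weights, each library left out in turn, and subunits by structure. Shared words of 31 bases were counted with Python 3.11.15, and the limit of 10% was added after seeing the data.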

Additional observations from a re-analysis of the deposited data

Results flagged for a closer look

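A library far from the other 3 of its group, by Dixon's ratio at the 95% level, was found in 2 of the 62 groups of 4 examined (28 named members, 2 subunit sums and their ratio, in each genotype), and chance gives about 1 in 20. *Mrpl14* was at 15.0 TPM in null replicate 1, where the other null libraries had 9.96 to 10.2 TPM. *Mrpl21* was at 11.3 TPM in wild-type replicate 3, where the other wild-type libraries had 12.7 to 12.9 TPM.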

How the results depend on the processing

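The median log2FC of all members stayed positive in all 17 alternatives, between 0.23 and 0.35. Without a filter, with the block and with 1 factor from residuals, log2FC cannot differ from the main fit. Their median of 0.31 is therefore no check of it. The number called higher was 2 without a filter, 4 after median-ratio scaling, 5 after quantile normalization, 17 with 1 factor from residuals and 1 (*Mrps27*) with the replicate number as a block, and 1 to 7 with each library left out. The share of all genes called higher moved too, to 2.67%, 7.96%, 8.77%, 14.3% and 3.91% in the first 5 of these and to 4.54% to 9.04% with each library left out. As a share of all members the counts lay below these values, except with 1 factor from residuals and without null replicate 4. The number called lower was 0 without a filter, with a mean of 5 TPM, after quantile normalization and with the block, and 0 to 2 with each library left out. Without a filter more genes were tested, and with the block fewer degrees of freedom remained. Replicate numbers did not pair the libraries (correlations of deviations from -0.009 to 0.069, with no library closest to its own number). The median of the small subunit was 0.20 after quantile normalization, and 0.26 to 0.36 with each library left out. By structure, the ratio of large to small subunit TPM was 2.33 in wild-type and 2.27 in null libraries. Among named members, the sign of *Mrpl48* turned after median-ratio scaling (-0.00897) and quantile normalization (-0.15), and without wild-type replicate 1 (-0.0389) or 4 (-0.0309) and null replicate 3 (-0.0160) or 4 (-0.0285), with at most 0.0885 in the fits that left out a library. The sign of *Mrpl52* turned after quantile normalization (-0.0177). The cause was not tested. The paper gives a lower limit for the reads of each sample but not their number, so low TPM limit *Mrpl23* and *Mrpl11* most.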

Other observations

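Genes of the 2-oxoglutarate dehydrogenase complex, to which the product of *Mrps36* is known to belong, had values of both signs beside the -0.81 of *Mrps36*, which was not called. *Dlst*, the succinyltransferase of the complex, had 38.8, 49.5, 35.7 and 41.5 TPM in wild-type and 125, 95.6, 90.2 and 84.5 TPM in null libraries (log2FC 1.23 ± 0.15 SE, limma adjusted p = 0.00565). *Dld*, the shared dihydrolipoamide dehydrogenase, was also higher in every null library (log2FC 0.55 ± 0.12 SE, limma adjusted p = 0.0241). *Ogdh*, the first enzyme of the complex, had 22.6 to 25.8 TPM in wild-type and 18.8 to 24.2 TPM in null libraries (log2FC -0.17, limma adjusted p = 0.300). These genes were chosen after their values were seen.

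The members differed in how much they varied between libraries of one genotype. The coefficient of variation had a median of 15.0% in wild-type and 16.6% in null libraries, and it was lowest for *Mrpl30* in both (3.10% and 2.93%). It was highest for *Mrpl23* in wild-type (55.5%) and for *Mrpl18* in null libraries (46.7%). *Mrpl38*, another gene of the central protuberance, ran from 17.2 to 34.4 TPM in wild-type and from 17.7 to 42.1 TPM in null libraries.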
